A study of Mus musculus with 11 samples.

Results

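Thymic DN3 cells were compared with ZsGreen-negative group 2 innate lymphoid cells (ILC2) of the lung across all genes, with 3 DN3 and 5 ZsGreen-negative libraries out of the 11 libraries of the series. The libraries were taken by their labels, and the 3 ZsGreen-positive ILC2 libraries were left out. All cells came from untreated 14-day-old mice of the genotype Cd3giCreRosa26stopZsGreen, a fate-mapping design in which Cre recombinase made under Cd3g removes a stop sequence ahead of the fluorescent protein ZsGreen at Rosa26. ZsGreen-negative ILC2 are thus cells in which the reporter had not been switched on, and the DN3 cells carried the same alleles. The labels state neither the sorting gates nor whether animals were pooled. Total counts were 5951494 to 7745062 in the DN3 libraries and 4495260 to 14424313 in the ZsGreen-negative libraries.

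DN3 cells are precursors of T cells that lack CD4 and CD8 and are at the stage at which the T cell receptor (TCR) beta, gamma and delta genes are cut and rejoined by the V(D)J recombinase. A rearranged beta chain pairs with the invariant pre-TCR alpha chain, and the pre-TCR then signals through the CD3 chains to start proliferation. ILC2 are tissue lymphocytes without an antigen receptor on their surface, which answer the epithelial alarmins IL-33, IL-25 and TSLP by secreting type 2 cytokines such as IL-5 and IL-13. Both arise from lymphoid progenitors and share several regulators, among them Gata3, Tcf7 and Bcl11b.

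The defining genes of both populations were found where the labels place them. Levels below are CPM, counts relative to library size after scaling by the trimmed mean of M-values, and values of single libraries are in the order of the library numbers. Rag1 stood at 1267, 1356 and 1299 CPM in DN3 and at 0.522, 0, 0, 0.505 and 0.150 CPM in ILC2. Il1rl1, the IL-33 receptor, stood at 3062, 3158, 3584, 3459 and 2808 CPM in ILC2 and had 0 counts in all 3 DN3 libraries. Of 10 thymic stroma genes, 4 were tested, and all 10 summed to 55.1 to 59.999 CPM in DN3 and 30.9 to 35.5 CPM in ILC2. Aire, Ly75 and Ccl25, named after their values were seen, were higher in DN3 (9.16, 33.2 and 14.7 against 2.84, 17.7 and 8.70 CPM on average) and 1 was lower, or 0 without ILC2 library 4, while the defining epithelial genes Foxn1 and Psmb11 had 0 and 2 counts in DN3. NK cell and ILC1 genes were scarce in ILC2, with 1 count of Ncr1 and 6 of Eomes and a summed level of 2.55 to 5.91 CPM. Genes of neutrophils, basophils and mast cells summed to 142 to 246 CPM in ILC2 and 25.3 to 25.7 in DN3, where 13 of 14 were at 0; Cpa3, named after its value was seen, made up 212 and 25.6 CPM of these on average. The lung libraries held more RNA of lung structural cells: 15 of the 18 tested markers were lower in DN3 and 3 higher, the summed level was 424 to 1197 CPM in ILC2, highest in library 3, and 198 to 235 CPM in DN3, and Sftpa1, Scgb1a1, Cldn18, Hopx and Pdgfra were at 0 in DN3. Macrophage and dendritic cell markers summed to 61.7 to 164 CPM in ILC2 and 18.6 to 20.3 CPM in DN3, with 5 of 6 tested lower in DN3 and 1 higher, or 2 to 3 lower when ILC2 library 1, 3 or 4 was left out. B cell markers summed to 99.8 to 121 CPM in ILC2 and 188 to 199.9 CPM in DN3, with 2 of 6 tested higher in DN3 and 4 lower, and Ms4a1 and Pax5 at 0 in DN3. The part of these cells in the results was not tested.

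The DN3 libraries all carry a batch label of 17 October 2024, ZsGreen-negative libraries 1 to 4 one of 2 September 2024 and library 5 one of 8 April 2025, so cell type, tissue and batch cannot be told apart. DN3 library 1 held 2096 counts of 4 Y-linked genes and 3 of Xist, whereas libraries 2 and 3 held 13 and 0 Y-linked counts and 24665 and 23052 of Xist. Each ILC2 library held both kinds of transcript. Whether the replicates of a group were separate mice is not in the labels, and the p-values then describe no more than how far these 8 libraries scatter, in part perhaps for technical reasons. In bulk RNA, fewer cells expressing a gene and less RNA per cell cannot be told apart.

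Most of the transcriptome differed. Of 14482 genes tested with edgeR's quasi-likelihood test, 5574 (38.5%) were higher and 5793 (40.0%) lower in DN3 at an adjusted p under 0.05, together 78.5%. For 74.7% of the genes tested, the values of the DN3 and ILC2 libraries did not overlap, with all DN3 libraries above in 36.8% and below in 37.9%. A call alone therefore says little, and sizes are given beside it: log2 fold changes are DN3 minus ILC2, with their standard error. The median over all genes was -0.03, and the median standard error was 0.14. Large differences were lopsided, with 425 genes (2.93%) higher and 1223 (8.44%) lower by at least 4 log2 units, and 78 higher and 304 lower by at least 8. Genes lower by at least 4 units made up 14.6 to 16.7% of all counts in ILC2 and 0.282 to 0.303% in DN3. Genes higher by that much made up 2.75 to 2.80% of the DN3 counts and 0.0336 to 0.0434% of those in ILC2. Scaling by library totals alone raised the median by 0.36 and gave 7213 higher and 4451 lower genes, so the share higher among the calls was 61.8% there against 49.0% with the main scaling. A difference of that size therefore depends on the scaling.

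**Figure D1:**
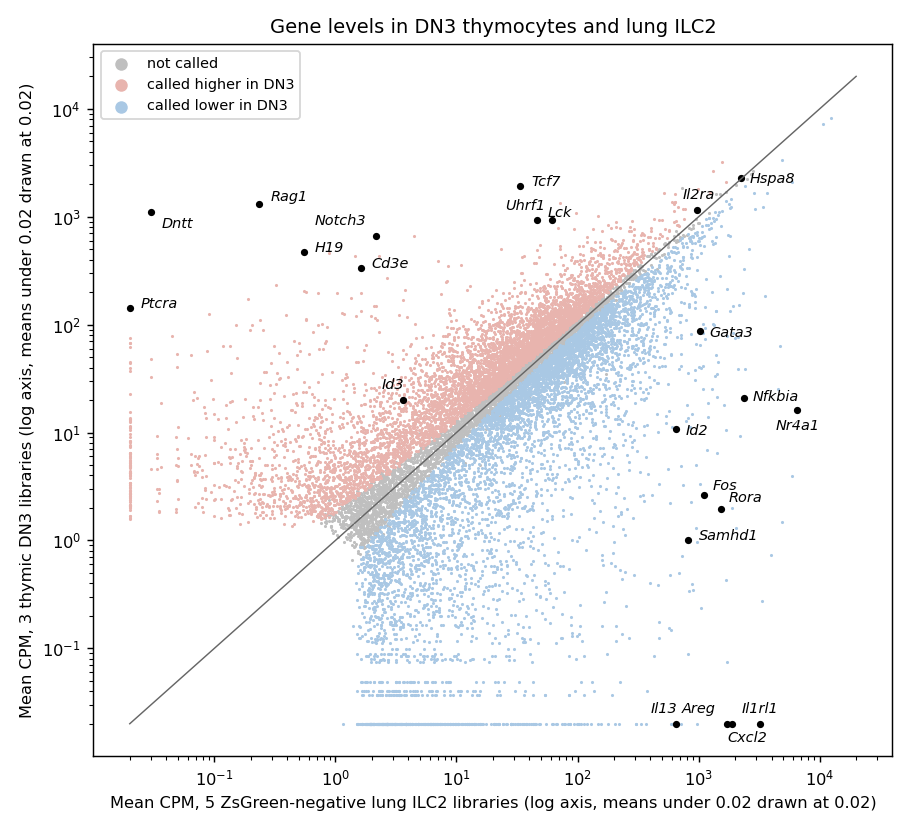
Mean CPM of the 14482 tested genes in the 3 DN3 libraries (y axis) against the 5 ZsGreen-negative ILC2 libraries (x axis), both log axes, with the line of equal levels and named genes in black. Genes such as Il1rl1, Areg and Il13 lie on the lower edge with no DN3 count, Rag1, Dntt and Ptcra lie at the upper left, and Il2ra and Hspa8 lie near the line.

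The genes that cut and extend receptor gene ends were read almost exclusively in DN3, while general repair genes were read in both. Of 16 genes of V(D)J recombination and end joining, 9 were higher and 3 lower, with a median of 0.84. Rag1 and Rag2 encode the recombinase, and Rag1 differed by 12.36 ± 0.19 (adjusted p = 3.0e-21), with only 8 counts over the 5 ILC2 libraries. Rag2 stood at 76.7, 78.2 and 69.0 CPM in DN3 with no count in ILC2, at least 859.9-fold higher when the ILC2 group is set to 3 counts. Dntt, the polymerase that adds bases without a template at the junctions, stood at 1087, 1153 and 1109.8 CPM in DN3 and had 2 counts in ILC2, a ratio of 19338 (exact 95% counting interval 5353 to 159691). General end-joining genes differed less and in both directions. The DNA end-binding Xrcc6 was higher by 3.61 ± 0.08 and the ligase Lig4 by 2.22 ± 0.09, whereas the end-joining polymerase Polm, at 4.34 to 5.66 CPM in DN3 and 46.1 to 55.0 in ILC2 (-3.31 ± 0.13), its relative Poll (-1.03 ± 0.18) and Paxx (-0.39 ± 0.13), named after their values were seen, were lower. Of the others, the hairpin-opening nuclease Dclre1c, at 41.3, 33.0 and 33.2 CPM in DN3 and 27.9 to 43.1 in ILC2, did not pass (0.14 ± 0.13, adjusted p = 0.31) unless library totals alone were used (0.50, adjusted p = 0.00109).

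All 5 pre-TCR and CD3 genes were higher, with a median of 7.69. Ptcra, the pre-TCR alpha chain, stood at 138, 144 and 149.9 CPM in DN3 and at 0 counts in ILC2, at least 1657-fold higher. Cd3d and Cd3e, which form the signalling dimers at the receptor, differed by 8.43 ± 0.14 and 7.69 ± 0.13. Cd3g, the gene that drives the Cre, was read in ILC2 at 39.2, 41.2, 30.1, 34.5 and 34.0 CPM against 436, 447 and 424 in DN3 (3.60 ± 0.09), and Cd247 at 7.39 to 11.5 against 132 to 142 CPM (3.84 ± 0.10). The groups did not overlap for any of the 5, and the 2 chains with a clear level in ILC2 were the ones with the smallest differences.

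The promoters of Rag1 and Ptcra are shown as the 150 bases before the RefSeq start site (GRCm38.p6), since both genes are read in DN3 and nearly or wholly silent in ILC2. Rag1 lies at chr2:101649533-101649682, minus strand and Ptcra at chr17:46763713-46763862, minus strand. Capitals mark the E-box letters CAGCTG and CAGGTG, bound by E proteins such as Tcf3 and Tcf12, and the Runx letters TGTGGT, each searched on both strands.
Rag1: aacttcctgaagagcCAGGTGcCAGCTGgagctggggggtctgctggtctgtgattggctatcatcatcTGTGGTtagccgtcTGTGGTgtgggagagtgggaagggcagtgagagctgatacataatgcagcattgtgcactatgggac
Ptcra: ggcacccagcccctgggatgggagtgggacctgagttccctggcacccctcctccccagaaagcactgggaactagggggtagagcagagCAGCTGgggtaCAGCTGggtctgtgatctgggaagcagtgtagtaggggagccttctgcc
In Rag1 the neighbouring CAGGTG and CAGCTG begin 135 and 128 bases before the start, and TGTGGT begins 81 and 67 bases before it. In Ptcra the CAGCTG letters begin 60 and 49 bases before the start. CAGCTG was held by 5 of the 14 recombination genes with a window (35.7%), against 12.8% of all 27018 gene windows of 250 bases. CAGGTG was held by 1 of the 14 (7.14%) against 17.1%, and TGTGGT by 1 of the 14 (7.14%) against 14.2%. The median share of G and C was 57.0% in the windows of these genes and 52.0% in all. A match describes letters and not binding.

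TCR segments differed by locus and by segment type. Of 36 beta segments tested, 26 were higher and 0 lower by edgeR's test, also 0 at an unadjusted p under 0.05, with DESeq2 and with limma voom, and 1 was lower without ILC2 library 3 or 4. Beta V segments had 5111 counts in DN3 and 34 in ILC2, where 29 of the 35 were at 0. With so few ILC2 counts, a beta V segment could pass the filter only through DN3. That all 18 tested V segments were higher, which are part of the 26, was therefore set by the filter. Trbv13-2 stood at 59.2, 56.0 and 54.2 CPM in DN3 and at 0.522, 1.09, 0.246, 0.168 and 0.525 in ILC2 (6.71 ± 0.20), and Trbv12-2 had 19.2 to 21.7 CPM against 3 counts in all, a ratio of 233 (exact 95% counting interval 79.2 to 1133). J segments and constant genes were read in both populations. The 14 J segments summed to 132.8 to 147 CPM in DN3 and 95.9 to 156 in ILC2, and the constant genes Trbc1 and Trbc2 differed by 0.66 ± 0.08 and 1.27 ± 0.07. All 11 tested gamma segments were higher: Trgv2 by 7.09 ± 0.18, and the constant genes Trgc2 by 8.26 ± 0.16, Trgc1 by 3.09 ± 0.17 and Trgc4 by only 0.62 ± 0.08. Trdc, the delta constant gene, stood at 188, 165 and 159 CPM in DN3 and 3.13, 3.10, 4.93, 3.70 and 3.15 in ILC2 (5.61 ± 0.12). Trac, the alpha constant gene, lay at 1.46 to 2.44 CPM in DN3 and 1.39 to 3.03 in ILC2, and all 60 alpha J segments together had 23 and 15 counts. Alpha V segments had 505 counts in DN3 and 84 in ILC2, summing to 18.9 to 23.3 and 1.39 to 3.38 CPM. The 4 tested of 130 were higher, but segments this low in ILC2 pass the filter mainly through DN3. Trdv4, with 3 counts in DN3 and 1264 in ILC2, was the tested delta segment that was lower in DN3, with delta V segments summing to 4.22 to 5.86 CPM there and 29.2 to 43.9 CPM in ILC2, and it and the segment totals are named after their values were seen. Near-identical segments and constant genes may share reads, so single segments are uncertain.

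Genes of proximal TCR signalling did not move together: 7 of 20 were higher and 12 lower, with a median of -0.77. Lck, the kinase that phosphorylates the CD3 chains, stood at 917, 938 and 924 CPM in DN3 and 43.3, 53.1, 42.4, 45.4 and 48.1 in ILC2 (4.31 ± 0.09, adjusted p = 6.5e-20). Zap70, the kinase that docks on those phosphorylated chains, ran the other way, at 61.4, 66.2 and 59.5 CPM in DN3 and 427, 385, 456, 434 and 423 in ILC2 (-2.77 ± 0.09, adjusted p = 1.0e-16). The thymocyte adaptor Themis was higher by 3.21 ± 0.09 and the adaptor Lat by 1.25 ± 0.08, whereas Rasgrp1, an activator of Ras, had a log2 fold change of -1.10 ± 0.08. ILC2 thus held Zap70 RNA in every library, while Cd3e was at most 2.09 CPM there.

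The Notch pathway, which drives T cell commitment in the thymus, did not move as a whole. Of 25 genes tested, 5 were higher and 15 lower, with a median of -0.69. Notch1 stood at 1359.9, 1368 and 1324 CPM in DN3 and 78.3, 67.1, 77.1, 56.5 and 81.9 in ILC2 (4.22 ± 0.10), and Notch3 at 665, 672 and 668 and 2.79, 1.64, 2.46, 1.68 and 2.25 CPM (8.26 ± 0.11). Dtx1, a ubiquitin ligase gene induced by Notch, was higher by 6.32 ± 0.13. Hes1, also a Notch target, was lower, at 73.4, 72.3 and 71.6 CPM in DN3 and 147, 165, 153, 166 and 156 in ILC2 (-1.12 ± 0.08, adjusted p = 3.1e-11). The target Nrarp, at 1.32 to 3.66 and 1.48 to 3.10 CPM, did not pass (0.11 ± 0.35, adjusted p = 0.79). Lfng, the glycosyltransferase that tunes Notch to Delta ligands, was lower by a log2 fold change of -1.26 ± 0.10. The ligand Jag1 was found in ILC2 at 459.7, 473, 562, 441 and 434 CPM and in DN3 at 4 counts in all (-11.34 ± 0.21).

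T lineage transcription factors were mostly higher, 18 of 27 tested with 9 lower and a median of 1.63. Tcf7, encoding the HMG-box factor TCF1, stood at 2015, 1877 and 1938 CPM in DN3 and 31.9, 33.6, 32.0, 33.0 and 38.2 in ILC2 (5.84 ± 0.10, adjusted p = 8.8e-21). Its relative Lef1 differed by 3.13 ± 0.08 and Sox4 by 3.14 ± 0.09. Myb, a regulator of thymocyte proliferation and survival, stood at 689.6, 657 and 658 against 4.35, 3.10, 4.68, 6.73 and 3.38 CPM (7.28 ± 0.13). Bcl11b, the commitment factor of T cells, was read well in both, at 766, 809 and 779 and 425, 426, 372, 358 and 451 CPM (0.95 ± 0.09). The E proteins Tcf3 and Tcf12 were higher by 1.57 ± 0.08 and 1.38 ± 0.07, the chromatin organiser Satb1 by 2.50 ± 0.09 and Runx1 by 1.498 ± 0.07. Factors better known from progenitors or other lineages differed in both directions. Higher at lower levels were Spib at 59.3 to 66.5 against 4.88 to 9.12 CPM, Erg at 27.1 to 29.3 against 0.336 to 1.97, and Bcl11a at 10.4 to 13.3 against 0.182 to 1.97, whereas Lmo2 (-4.39 ± 0.48) and Hhex (-1.37 ± 0.32), named after their values were seen, were lower. Of 10 tested genes of early thymic progenitors and DN2 cells, 3 were higher and 6 lower, with a median of -1.63. Ets1 (-1.36 ± 0.09), Tox (-0.98 ± 0.08) and the Ikaros relative Ikzf3 (-3.91 ± 0.12) were lower, and Ikzf1 and Gfi1 were lower by small amounts (-0.36 ± 0.08 and -0.35 ± 0.08), which scaling by library totals moved to -0.0049 (adjusted p = 0.958) and turned to 0.0129 (adjusted p = 0.884).

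All 21 tested members of the list of ILC transcription factors were lower, with a median of -4.49. That result depends on the choice of members. Tcf7 and Bcl11b, regulators shared by both lineages, were counted with the T lineage factors and were higher in DN3 (5.84 and 0.95). Ets1 was a member of the T lineage list and of this one. Rora, required for ILC2, stood at 2.64, 1.33 and 1.93 CPM in DN3 and 1729.7, 1241, 1874, 1388 and 1411 in ILC2 (-9.63 ± 0.22). Bhlhe40 differed by -7.88 ± 0.14, Nfil3 by -7.02 ± 0.17, Irf4 by -7.01 ± 0.17 and Prdm1 by -7.48 ± 0.25. Gata3, which both lineages use, kept a clear DN3 level of 85.4, 89.4 and 86.6 CPM against 1001, 928, 1186, 1133 and 917 in ILC2 (-3.57 ± 0.11). Zbtb16, the PLZF factor of ILC precursors, was low in ILC2 at 6.38 to 13.8 CPM and had 4 counts in DN3. The nuclear receptors Pparg (-4.49 ± 0.13) and Rxrg (-6.97 ± 0.23, or -8.27 without DN3 library 3) were lower as well. Ikzf2 (-0.62 ± 0.09) differed by under 1 log2 unit, and the smallest difference of the list was -0.46. The Id proteins, which block E proteins, were opposed: Id2 stood at 11.1, 10.8 and 10.2 CPM in DN3 and 622, 789, 652, 679 and 522 in ILC2 (-5.93 ± 0.15), and Id3 at 19.6, 21.8 and 18.4 and 4.35, 3.65, 5.91, 2.69 and 1.501 CPM (2.62 ± 0.26). The groups overlapped for neither.

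**Figure D2:**
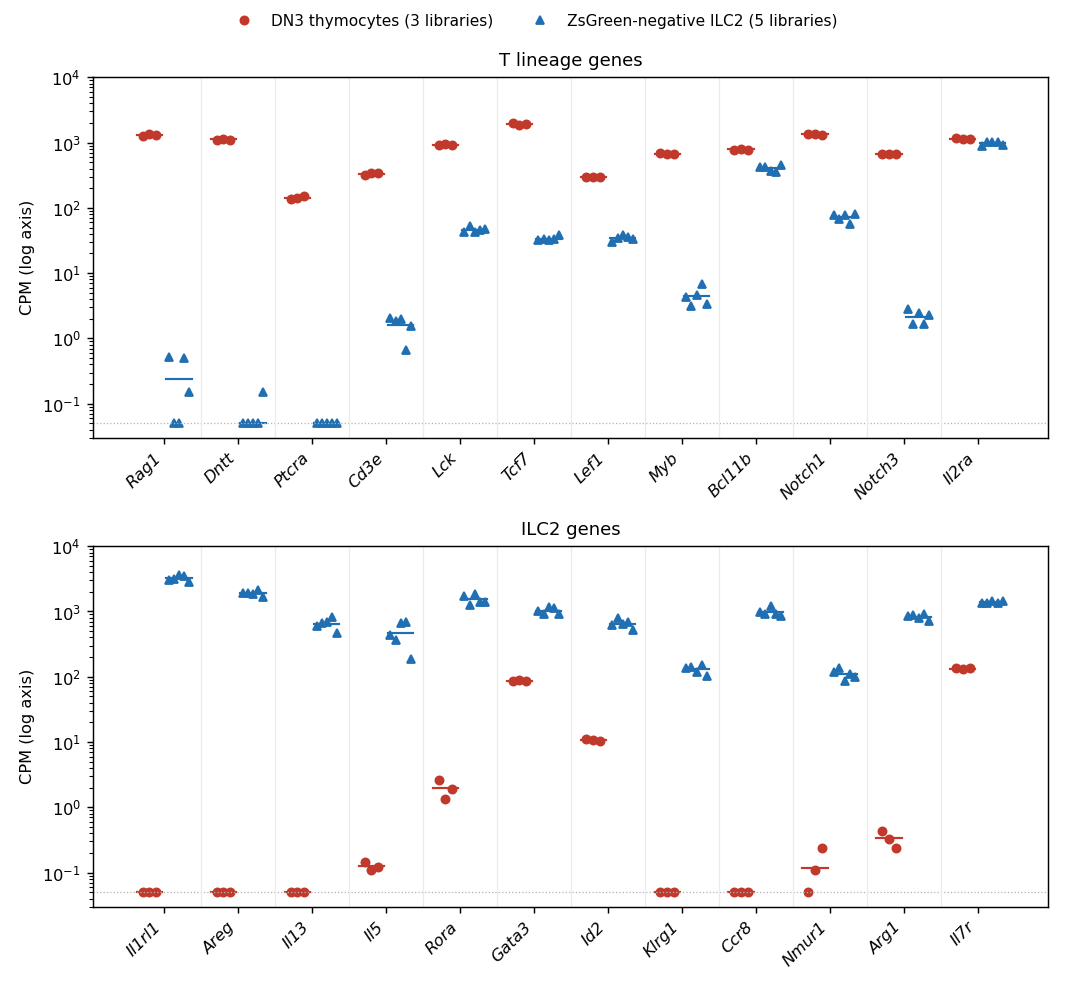
CPM (log axis) of 12 T lineage genes and 12 ILC2 genes in each of 3 DN3 libraries (circles) and 5 ZsGreen-negative ILC2 libraries (triangles), with group means as bars and values under 0.05 CPM drawn at 0.05. Libraries of a group lie close together beside the distance between groups, except for Il2ra and Bcl11b, where the groups lie near each other, and for Il5, which spreads from 189 to 699 CPM in ILC2.

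Genes whose products are used to gate thymocyte stages were low in DN3 where earlier stages are high. Cd44, high on earlier thymocytes, stood at 3.81, 5.55 and 5.66 CPM in DN3 and 999.7, 901, 973, 948 and 909 in ILC2 (-7.54 ± 0.14). Kit, the stem cell factor receptor of earlier stages, stood at 58.0, 49.8 and 54.2 and 762, 679, 764, 611 and 776 CPM (-3.74 ± 0.11). Il2ra, the CD25 chain used to mark both DN3 cells and ILC2, was nearly alike, at 1161, 1133 and 1148 CPM in DN3 and 871, 1035, 1025, 1023 and 934 in ILC2 (0.23 ± 0.09, adjusted p = 0.021 by edgeR). That call was lost without ILC2 library 1 (adjusted p = 0.0743), DN3 library 1 (0.0568) or DN3 library 3 (0.0537), and with all 11 libraries (0.0616). Cd24a was higher by 2.53 ± 0.10, Cd27 by 2.00 ± 0.10, Cd28 by 3.08 ± 0.13 and Cd5 by 3.02 ± 0.19. Thy1, a marker of both lineages, differed by 0.85 ± 0.08. The coreceptors were read at low levels in DN3: Cd4 at 2.78, 2.99 and 3.25 CPM, Cd8a at 3.81, 4.21 and 3.98 and Cd8b1 at 4.25, 4.55 and 5.06, against at most 0.696 CPM in any ILC2 library. Of the 20 stage and surface genes tested, 13 were higher and 6 lower, with a median of 1.53.

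Cytokine receptors were mostly lower, 22 of 27 tested with 5 higher and a median of -3.38. Il1rl1 was at least 25871-fold lower. Il18r1 had 1 count in DN3 and 79.1 to 90.4 CPM in ILC2. The other alarmin receptors were read in both populations: Il17rb, for IL-25, at 182, 173 and 177 CPM in DN3 and 486, 454, 610.2, 605 and 566 in ILC2 (-1.62 ± 0.10), and Crlf2, for TSLP, at 17.7 to 19.2 and 78.0 to 91.2 CPM (-2.17 ± 0.10). Il7r, which both lineages need, was lower at 136, 130.2 and 135 against 1359.8, 1338, 1445, 1344 and 1466 CPM (-3.38 ± 0.10). The shared gamma chain Il2rg differed by -2.95 ± 0.10, the IL-2 receptor beta chain Il2rb by -10.20 ± 0.20 and Il9r by -3.99 ± 0.09. The IL-4 receptor Il4ra differed by -5.71 ± 0.16. Il21r was higher in DN3 at 27.8 to 28.8 against 2.55 to 8.08 CPM (2.23 ± 0.21). With Il2ra alike and Il2rb at 9 counts in DN3, the IL-2 receptor chains differed unequally between the groups.

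Cytokines were read mainly in ILC2. Of 31 cytokine and effector genes, 12 had 0 counts in DN3, and such a gene could pass the filter only through ILC2. Of 27 cytokine and effector genes tested, 25 were lower and 0 higher, with a median of -7.90, or -6.27 with the genes at 0 in DN3 set to their bounds. By edgeR at an unadjusted p under 0.05, with DESeq2 and with limma voom the number higher was also 0, while library totals alone gave 2 and leaving out ILC2 library 3 gave 1. Il13 stood at 606, 659, 699, 817 and 465 CPM in ILC2 and at 0 counts in DN3, at least 5224-fold lower. Il5 stood at 443, 369, 663, 699 and 189 CPM in ILC2, with library 5 lowest, and at 3 counts in DN3, an ILC2 to DN3 ratio of 3245 (exact 95% counting interval 1110.0 to 15735). Areg, an epidermal growth factor receptor ligand of tissue repair, was at 1945, 1907, 1839, 2109.8 and 1680.0 CPM in ILC2 and at 0 counts in DN3, at least 15262-fold lower. Csf2 was at least 5755-fold lower, and Calca, which encodes the neuropeptide CGRP, had 2 counts against 1393 to 2118 CPM. Arg1, the arginase of ILC2, differed by -11.22 ± 0.20. Il4 was low in ILC2, at 10.3 to 17.5 CPM (-4.78 ± 0.33), beside its locus neighbours Il13 and Il5. Il2, the T cell growth factor, was read in ILC2 at 201, 157, 179, 118.9 and 214 CPM and at 2 counts in DN3. Tnf (-6.27 ± 0.70) spread widely in ILC2, from 121 to 383 CPM. Among 8 chemokines tested 7 were lower and Ccl25, named after its value was seen, was higher, at 13.3 to 16.3 CPM against 8.36 to 9.12. Ccl1, Cxcl2 and Cxcl3 had 0 counts in DN3 and were at least 2935-, 13854- and 625-fold lower.

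The promoters of Areg and Il13 are shown as examples of genes at 0 counts in DN3 and with a clear level in every ILC2 library. Areg lies at chr5:91139449-91139598, plus strand and Il13 at chr11:53634703-53634852, minus strand (150 bases before the start, RefSeq, GRCm38.p6). Capitals mark the cyclic AMP response element TGACGTCA, the GATA letters AGATAA and the TATA box TATAAA, searched on both strands; in Il13 the box is read on both.
Areg: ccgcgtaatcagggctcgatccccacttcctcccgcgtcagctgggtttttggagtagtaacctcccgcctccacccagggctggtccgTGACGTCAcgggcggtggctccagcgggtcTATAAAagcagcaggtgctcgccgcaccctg
Il13: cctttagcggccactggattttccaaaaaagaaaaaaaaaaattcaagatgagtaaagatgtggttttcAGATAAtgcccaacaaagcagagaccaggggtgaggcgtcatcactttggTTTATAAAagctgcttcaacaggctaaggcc
TGACGTCA begins 61 bases before the Areg start and was held by 1 of 26 cytokine genes with a window (3.85%), against 1.62% of all 27018 gene windows. AGATAA begins 81 bases before the Il13 start and was held by 6 of 26 cytokine genes with a window (23.1%) against 10.3% of all. TATAAA was held by 9 of those 26 (34.6%) against 12.97%. The median share of G and C was 55.6% in the windows of these genes and 52.0% in all, and a match describes letters and not binding.

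Homing and tissue residence genes were mostly lower in DN3. Of 28 chemokine receptors, egress and adhesion genes tested, 4 were higher and 22 lower, with a median of -3.81. Ccr8 stood at 999, 921, 1211, 903 and 838 CPM in ILC2 and at 0 counts in DN3, at least 7842-fold lower, and Cxcr6 differed by -10.39 ± 0.27. Ccr9, the thymus and gut homing receptor, was read in both at 47.2, 43.9 and 43.5 and 30.3, 27.7, 44.9, 33.0 and 17.5 CPM and its call by edgeR was weak (0.60 ± 0.24, adjusted p = 0.047). The call was lost without any one of 6 libraries, with adjusted p from 0.0712 to 0.116. It was lost as well with DESeq2's size factors in edgeR (0.057) and with all 11 libraries (0.275). Cxcr4, the receptor for CXCL12, was close in both at 231, 212 and 220.2 and 195, 228, 236, 256 and 203 CPM (-0.01 ± 0.09, adjusted p = 0.89), and turned to 0.35 (adjusted p = 0.000651) with library totals alone. S1pr1, the egress receptor, had 3 counts in DN3 and 13.8 to 24.2 CPM in ILC2, and its regulator Klf2 differed by -3.36 ± 0.22. Cd69, which holds S1pr1 inside the cell, was lower too (-5.59 ± 0.22). Among integrins, Itgb7 (-8.27 ± 0.17), Itgb3 (-5.76 ± 0.12) and Itgav (-4.07 ± 0.18) were lower, and Itga4 was slightly higher (0.34 ± 0.09).

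Genes of neuropeptide, adrenergic and lipid mediator signalling, both receptors and enzymes that make lipid mediators, were lower in all 24 tested, with a median of -4.32. Nmur1, the neuromedin U receptor of ILC2, stood at 117.7, 134, 85.8, 111 and 99.8 CPM in ILC2 and at 3 counts in DN3, an ILC2 to DN3 ratio of 874 (exact 95% counting interval 299 to 4240.5). Vipr2, for vasoactive intestinal peptide, differed by -4.30 ± 0.14, and Ramp1, a subunit of the CGRP receptor, by -1.70 ± 0.09 with 84.2 to 88.5 CPM left in DN3. Alox5, which starts leukotriene synthesis, was at 203 to 243 CPM in ILC2 and at 0 in DN3, whereas its partner Alox5ap differed only by -0.85 ± 0.17. Ptgir (-9.26 ± 0.16), Cysltr1 (-4.63 ± 0.11) and the prostaglandin synthase Hpgds (-4.23 ± 0.21) were also lower. Ptgdr2, the prostaglandin D2 receptor often used to mark ILC2, had 4 counts in ILC2 and 3 in DN3 and was not tested.

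Costimulatory and inhibitory receptors were lower in 15 of 19 tested, with 2 higher and a median of -5.73, or -5.05 at the bounds. Icos stood at 2.78, 1.77 and 2.29 CPM in DN3 and 784, 708, 1020.0, 959.7 and 825 in ILC2 (-8.57 ± 0.19). Klrg1, a marker of activated ILC2, was at 136, 139.7, 118.3, 150.1 and 104 CPM and at 0 counts in DN3, at least 1043-fold lower. Pdcd1 (-4.04 ± 0.13), Tnfrsf18 (-4.57 ± 0.11) and Tnfrsf9 (-4.26 ± 0.25) were lower. Ctla4 ran against them, at 48.3, 46.8 and 49.995 CPM in DN3 and 32.7, 31.9, 33.3, 33.3 and 21.0 in ILC2 (0.69 ± 0.13, adjusted p = 5.4e-05).

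Immediate early genes, which are switched on within minutes of stimulation, were lower in DN3 nearly without exception and abundant in ILC2. The labels do not state the time from tissue to lysis, so levels in the tissue and levels reached after sampling cannot be told apart. Their 26 members summed to 33210 to 42643 CPM in ILC2 and to 734 to 812 CPM in DN3. Of these, 25 were lower and 1 higher, with a median of -6.65. Nr4a1, an orphan nuclear receptor induced by receptor signals, stood at 18.7, 14.0 and 15.7 CPM in DN3 and 6272, 5139, 6807, 6563 and 7619 in ILC2 (-8.66 ± 0.19). The AP-1 gene Fosb stood at 11.1, 0.444 and 0.361 and 5971, 4995, 6095, 5606 and 6715 CPM, and Junb at 40.9, 17.1 and 17.8 and 4324, 4258, 3823, 4429 and 5798 CPM (-7.51 ± 0.38). DN3 library 1 lay above the other DN3 libraries in Fos, Fosb, Jun and Junb, and in none of them did the groups overlap. The log2 fold change of Fos was -8.88 ± 0.68 with all libraries, -11.56 without DN3 library 1 and -8.28 without DN3 library 2, and that of Fosb -10.68 ± 0.87, -13.76 and -10.08. Atf3 was at 288 to 388 CPM in ILC2 and at 0 counts in DN3. Egr1 (-3.46 ± 0.21) and Klf6 (-2.80 ± 0.15) differed less, and Myc was the member that was higher, by 0.34 ± 0.09 (adjusted p = 0.0013).

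All 16 NF-kB genes tested were lower, with a median of -5.03. Nfkbia, the inhibitor that NF-kB itself induces, stood at 22.99, 19.4 and 20.7 CPM in DN3 and 2403, 2125, 2367, 2301 and 2545 in ILC2 (-6.81 ± 0.13). Tnfaip3, the A20 feedback inhibitor, stood at 69.3, 65.7 and 57.1 and 4914, 4289.9, 4811, 4133 and 5203 CPM (-6.19 ± 0.14). The subunit genes Nfkb1 and Rel differed by -3.69 ± 0.11 and -4.98 ± 0.26. The Nfkbia promoter (chr12:55492648-55492797, minus strand) is shown with the NF-kB letters in capitals, which begin 29 bases before the start. The motif searched was GGG and TTCC separated by any 3 bases, on both strands, held by 4.604% of all gene windows.
Nfkbia: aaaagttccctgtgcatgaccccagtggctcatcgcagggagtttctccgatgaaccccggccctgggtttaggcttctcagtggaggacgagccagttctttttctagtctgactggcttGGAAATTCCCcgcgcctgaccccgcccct

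Feedback inhibitors of other pathways were lower in 16 of 23, with 5 higher and a median of -1.93. Dusp1, a phosphatase of MAP kinases, differed by -5.89 ± 0.13, Dusp5 by -4.93 ± 0.12, the Ras inhibitor Spry1 by -4.60 ± 0.13 and the STAT5 target Cish by -4.96 ± 0.13. Rgs1 and Rgs2, which damp G protein signals, differed by -9.56 ± 0.37 and -5.67 ± 0.12. The cytokine signal inhibitors Socs1 (-0.39 ± 0.16, adjusted p = 0.042) and Socs3 (0.55 ± 0.16, adjusted p = 0.0051) differed little, and the call of Socs1 was lost without any one of ILC2 libraries 2, 4 and 5 or any DN3 library (adjusted p 0.0715 to 0.119). It was lost as well with upper-quartile scaling (-0.30, adjusted p = 0.101), with library totals alone (-0.04, adjusted p = 0.849) and with the replicate number as a block (-0.13, adjusted p = 0.279). Of 14 mRNA decay factors, 11 were lower and 1 higher. Zfp36, which destabilises cytokine mRNA, stood at 8.201, 6.43 and 5.90 CPM in DN3 and 1048, 1041, 1029, 1161 and 1568 in ILC2 (-7.43 ± 0.20), Zfp36l1 at 79.1 to 88.3 and 1659.7 to 2240.3 CPM (-4.52 ± 0.13), and Zfp36l2 at 499 to 724 and 974 to 1711 CPM (-1.14 ± 0.18).

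**Figure D3:**
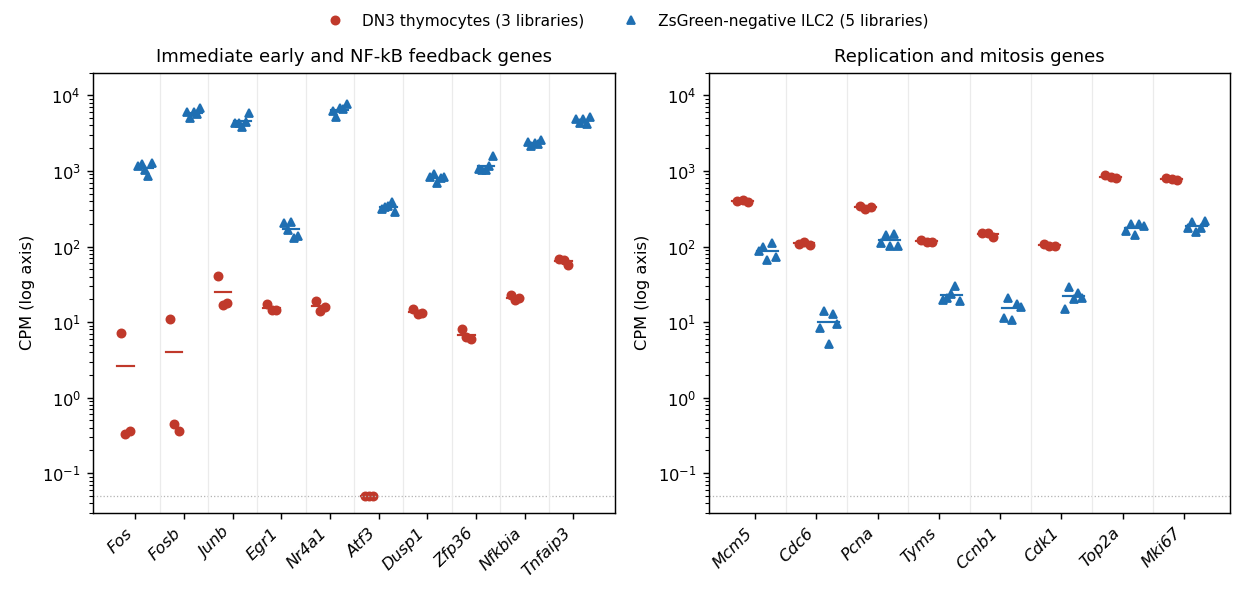
CPM (log axis) of immediate early and NF-kB feedback genes (left) and of replication and mitosis genes (right) in each DN3 (circles) and ZsGreen-negative ILC2 library (triangles), with group means as bars and values under 0.05 CPM drawn at 0.05. On the left every ILC2 library lies above every DN3 library and DN3 library 1 is highest of its group in Fos, Fosb and Junb, and on the right every DN3 library lies above every ILC2 library.

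Proliferation genes were higher in DN3 almost as a block. All 29 DNA replication genes were higher, with a median of 2.15, and 27 of 28 mitosis genes, with a median of 2.19. Mcm5, a subunit of the replicative helicase, stood at 398, 407 and 390.2 CPM in DN3 and 88.1, 98.5, 66.8, 113 and 72.4 in ILC2 (2.19 ± 0.13). The origin licensing factor Cdc6 differed by 3.44 ± 0.16 and the clamp Pcna by 1.46 ± 0.11. Top2a stood at 877, 821 and 812 and 158, 196, 141, 200.4 and 189 CPM (2.24 ± 0.10), Mki67 at 760.4 to 808 and 155 to 217 CPM (2.06 ± 0.10), and cyclin B1, Ccnb1, at 149.5, 151 and 134 and 11.5, 21.0, 10.6, 17.2 and 15.9 CPM (3.23 ± 0.14). Cell cycle RNA was thus read in ILC2 too, at a lower level. The exception, the centromeric histone Cenpa, had a log2 fold change of -0.60; it is named after its value was seen and was not called lower with library totals alone.

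The promoters of Cdk1 and Ccnb1 are shown for letters known from mitotic genes. Capitals mark CCAAT, or ATTGG when read from the other strand, and in Cdk1 the cell cycle homology region TTTGAA. Cdk1 lies at chr10:69352913-69353062, minus strand and Ccnb1 at chr13:100786487-100786636, minus strand (150 bases before the start, RefSeq, GRCm38.p6).
Cdk1: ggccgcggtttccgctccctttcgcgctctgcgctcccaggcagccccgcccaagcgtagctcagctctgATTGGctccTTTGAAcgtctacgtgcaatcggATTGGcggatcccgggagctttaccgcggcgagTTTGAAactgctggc
Ccnb1: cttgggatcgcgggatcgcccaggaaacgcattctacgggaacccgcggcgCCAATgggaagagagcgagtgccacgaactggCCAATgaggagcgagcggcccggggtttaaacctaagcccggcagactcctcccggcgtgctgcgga
In Cdk1 ATTGG begins 80 and 48 bases before the start and TTTGAA 71 and 15 bases before it, and in Ccnb1 CCAAT begins 99 and 67 bases before it. CCAAT was held by 19 of the 25 mitosis genes with a window (76.0%) and by 15 of 24 replication genes (62.5%), against 34.5% of all 27018 gene windows. TTTGAA was held by 7 of the 25 mitosis genes (28.0%) and 3 of the 24 replication genes (12.5%), against 16.3% of all. These lists are richer in G and C than all windows, with a median of 62.0% and 57.4% against 52.0%.

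Genes of the G1 phase, cyclins, kinases and their inhibitors, differed in both directions. Of 18 genes tested, 10 were higher and 7 lower. Cdk6 stood at 1102, 1079 and 1040.1 CPM in DN3 and 99.0, 83.7, 103, 105 and 90.3 in ILC2 (3.48 ± 0.09), and Cdk4, Ccne1 and Ccna2 were higher by 1.91 ± 0.08, 2.47 ± 0.17 and 2.54 ± 0.09. Among D cyclins, Ccnd3 was higher (0.54 ± 0.08) and Ccnd2 lower (-0.73 ± 0.09). The kinase inhibitor Cdkn1a stood at 39.7, 43.3 and 41.3 CPM in DN3 and 506, 456, 525, 520.4 and 469 in ILC2 (-3.58 ± 0.09), and Cdkn1b was lower as well (-1.59 ± 0.08).

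Nucleotide synthesis went with replication: 28 of 31 genes were higher, with a median of 1.59. Shmt1, which feeds folate with one-carbon units, differed by 3.85 ± 0.12, thymidylate synthase Tyms by 2.40 ± 0.11, Rrm2 of ribonucleotide reductase by 2.41 ± 0.10, the salvage kinase Dck by 2.84 ± 0.11 and the pyrimidine enzyme Cad by 2.02 ± 0.08. Samhd1, which breaks down deoxynucleotides, was the outlying exception, at 0.732, 1.66 and 0.602 CPM in DN3 and 668, 731, 831, 1042 and 790.1 in ILC2 (-9.60 ± 0.25; -10.22 without DN3 library 2). Impdh1 was higher and Impdh2 lower, by 1.13 ± 0.08 and -0.97 ± 0.08, although both encode the same step of guanine nucleotide synthesis.

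Glycolysis genes as a list did not separate the groups, with 10 of 26 higher, 13 lower and a median of -0.14, which turned to 0.22 with library totals alone. Single isoforms differed more. Slc16a1, a monocarboxylate transporter, stood at 253, 268 and 260.0 CPM in DN3 and 37.6, 38.3, 37.2, 36.005 and 29.7 in ILC2 (2.88 ± 0.08), while its relative Slc16a3, which exports lactate, stood at 1.76, 2.11 and 2.05 and 38.8, 48.1, 37.2, 45.9 and 40.8 CPM (-4.40 ± 0.17). Ldhb was higher (1.99 ± 0.13) and Ldha lower (-0.56 ± 0.11), and the latter was not called with library totals alone (-0.20, adjusted p = 0.0722). Hif1a (-1.85 ± 0.11), Hk2 (-2.61 ± 0.12) and the glucose transporter Slc2a1 (-1.66 ± 0.10) were lower.

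**Figure D4:**
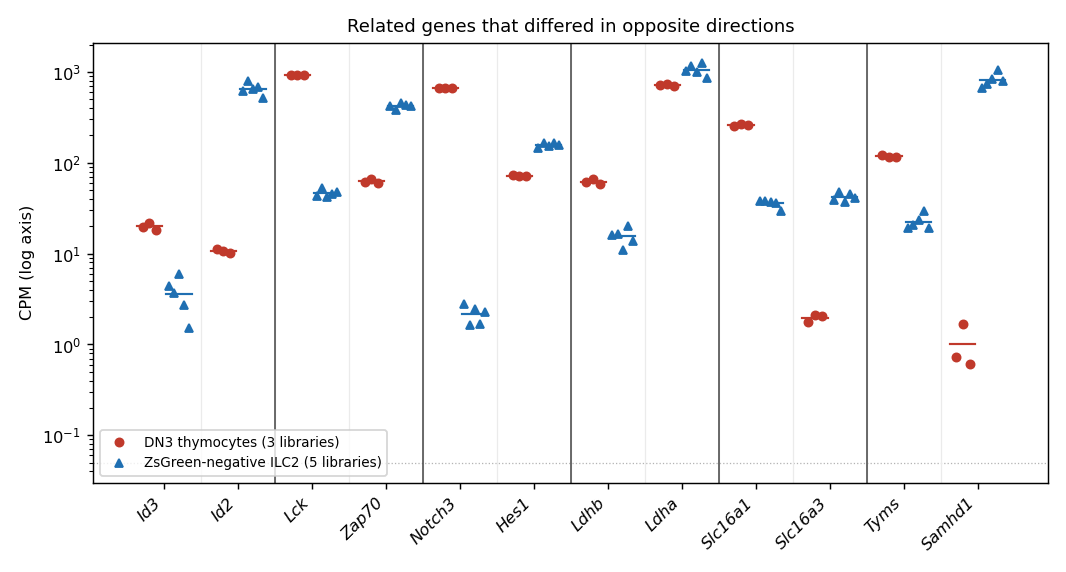
CPM (log axis) of 6 pairs of related genes (Id3 and Id2, Lck and Zap70, Notch3 and Hes1, Ldhb and Ldha, Slc16a1 and Slc16a3, Tyms and Samhd1), chosen after their values were seen, in each DN3 (circles) and ZsGreen-negative ILC2 library (triangles), with group means as bars and values under 0.05 CPM drawn at 0.05. In each pair the first gene is higher in all DN3 libraries and the second in all ILC2 libraries.

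Sterol synthesis and uptake genes were higher in 13 of 19 and lower in 4, with a median of 1.12. Squalene epoxidase Sqle stood at 104, 100.5 and 99.9 CPM in DN3 and 21.4, 21.2, 17.5, 18.2 and 14.9 in ILC2 (2.46 ± 0.10), and Idi1, the isomerase of isopentenyl diphosphate, differed by 2.87 ± 0.14. The sterol exporter Abca1 was lower (-3.13 ± 0.26), and Insig1 (0.15 ± 0.11) and Abcg1 (0.01 ± 0.09) were not called. Of 18 genes of polyamine metabolism and amino acid transport, 4 were higher and 11 lower. Spermidine synthase Srm was higher by 2.39 ± 0.09, whereas ornithine decarboxylase Odc1 (-1.60 ± 0.10) and the polyamine acetylase Sat1 (-3.49 ± 0.11) were lower. Slc7a8, a transporter of large neutral amino acids, stood at 0.293, 0.665 and 0.482 CPM in DN3 and 458, 721, 539.9, 625 and 560.1 in ILC2 (-10.14 ± 0.24).

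Chromatin regulators were split, with 9 of 20 higher and 8 lower, or 5 lower without DN3 library 1 or with upper-quartile scaling and 4 with library totals alone. Their median of -0.09 changed sign with upper-quartile scaling (0.0043) and library totals alone (0.27). The maintenance pair of DNA methylation was higher: Uhrf1 stood at 924, 962 and 891 CPM in DN3 and 59.0, 73.9, 42.1, 73.9 and 58.1 in ILC2 (3.91 ± 0.13), and Dnmt1 at 783 to 808 and 176 to 225 CPM (1.93 ± 0.08). Of the de novo methyltransferases, Dnmt3b was higher (2.46 ± 0.09) and Dnmt3a was not called (-0.13 ± 0.09) and turned to 0.22 with library totals alone. The Polycomb methyltransferase Ezh2 was higher by 1.70 ± 0.07, its relative Ezh1 was lower by a small amount (-0.50 ± 0.09; -0.15, adjusted p = 0.127, with library totals alone), and the H3K27 demethylase Kdm6b was lower (-2.23 ± 0.12).

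The Bcl2 family, which holds protective and death-promoting members, was lower in 12 of 16 tested and higher in 2, with a median of -1.22. Bcl2 stood at 73.8, 75.2 and 68.3 CPM in DN3 and 137, 156, 178, 199.9 and 162 in ILC2 (-1.20 ± 0.10). The death-promoting Bcl2l11 (-1.73 ± 0.11) and Pmaip1 (-5.21 ± 0.17) were lower along with the protective Bcl2l1 (-1.34 ± 0.10) and Mcl1 (-0.88 ± 0.07). The members that were higher, Bid (3.10 ± 0.13) and Bmf (2.33 ± 0.15), named after their values were seen, promote death. Bcl2a1d had 3 counts in DN3 and 83.3 to 129 CPM in ILC2, and near-identical copies make the single Bcl2a1 genes uncertain.

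Antigen presentation genes were lower in 12 of 16, with 2 higher and a median of -2.41. H2-K1 stood at 198, 199.5 and 193 CPM in DN3 and 2229.6, 2233, 2139.5, 2929.7 and 2084 in ILC2 (-3.56 ± 0.13), H2-D1 differed by -3.82 ± 0.12 and the light chain B2m by -2.04 ± 0.14. H2 class I genes are alike in sequence, so the split of reads among them is uncertain. Nlrc5, the activator of class I genes, was lower (-2.18 ± 0.30), and the peptide transporter Tap1 was not called (-0.14 ± 0.21). The class II genes Cd74 and H2-Aa were at 47.0, 43.9, 54.0, 53.2 and 38.1 and 8.18, 5.11, 12.1, 11.9 and 6.90 CPM in ILC2, with H2-Aa at 0 in DN3. Other class II genes, named after their values were seen, did not all follow. H2-Eb1 (-4.65) and Ciita (-2.63) were lower. H2-Ab1 was not called, at 6.90 CPM in DN3 and 7.83 in ILC2 on average (-0.15), and H2-DMa was higher, at 19.9 and 4.90 CPM (1.96). The macrophage and dendritic cell markers given above summed to more in ILC2, and their part in these class II values was not tested. ILC2 library 4 was highest in H2-K1, H2-D1, B2m, Tap1 and Nlrc5, and its interferon-stimulated genes summed to 877 CPM against 491 to 538 in the other ILC2 libraries and 560.1 to 654 in DN3. Of 19 interferon-stimulated genes, 9 were higher and 2 lower in DN3, or 4 lower without that library.

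Outside these lists, the most abundant genes at least 4 log2 units higher in DN3 included Cdca7, a chromatin gene of cycling cells (4.43 ± 0.10), the imprinted RNA H19 at 426, 499 and 474 CPM against 1.04, 0.547, 0.246, 0.673 and 0.225 in ILC2 (9.83 ± 0.16), and Arpp21 at 449 to 477 against 0.375 to 1.23 CPM (9.21 ± 0.14). The receptors Adgrg1 (5.84 ± 0.12), Smo of the hedgehog pathway (4.90 ± 0.09), Ptprf (5.47 ± 0.17) and Gfra1 (9.56 ± 0.18) belonged to the same set. So did Marcks, Pld4, Hivep3, Tedc1, Plekha7, Actn1, Aqp11 and the fatty acid desaturase Fads2, with log2 fold changes from 4.09 to 7.63. Their counterparts in ILC2 were led by Tmsb4x, an actin-binding peptide, at 185, 196 and 173 CPM in DN3 and 3237, 3863, 3187, 4349 and 3054 in ILC2 (-4.26 ± 0.14). Stab2, a scavenger receptor known from endothelium, stood at 3386, 2814, 3829, 3134 and 3578 CPM in ILC2 and had 7 counts in DN3 (-13.41 ± 0.24). Other endothelial genes were lower in DN3 as well, Kdr with 1 count there against 2.85 to 10.6 CPM in ILC2, Cdh5 with 1 count against 4.37 to 18.7, and Cldn5 and Tek likewise, whereas Pecam1 was higher in DN3, at 94.05 to 112 CPM against 51.3 to 67.0. Their part in the Stab2 value was not tested. Furin (-5.96 ± 0.15), Fgl2 (-11.94 ± 0.22), the triglyceride enzyme Dgat1 (-6.51 ± 0.26), the lipid droplet gene Hilpda (-5.98 ± 0.23) and Vim (-4.75 ± 0.13) were in this set, with Nabp1, Stk17b, Ifrd1, Kctd12, Vps37b, Sik1, Spty2d1 and Ero1a at log2 fold changes between -6.46 and -4.70.

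Some abundant genes were alike. Of 11626 tested genes left after unnamed models, ribosomal, mitochondrial, pseudogene, TCR and sex-linked entries were set aside, 1905 had a 95% interval of the log2 fold change within 0.5 on both sides of 0. The most abundant were the chaperone Hspa8, at 2416, 2260.2 and 2209.7 CPM in DN3 and 2272, 2367, 2167, 2458 and 1859 in ILC2 (0.05 ± 0.10), and the poly(A)-binding Pabpc1, at 1772, 1605 and 1680.0 and 1758, 1763, 1695, 1669 and 1520.3 CPM (0.00 ± 0.09). Eif4g2, Ddx17, Cfl1, Srsf5, Snrnp70, Chd4 and Srsf3 were also within these bounds and not called by edgeR, though DESeq2 and limma voom called Eif4g2, Ddx17, Srsf5 and Srsf3, and Il2ra, Pkm, Prrc2a, Ptbp1 and H3f3b were called at a log2 fold change between -0.22 and 0.31. Of these calls, that of Il2ra was lost in 3 fits that left out a library, as given above, that of Pkm without ILC2 library 1 or 3 or DN3 library 1 or 2 (adjusted p 0.0588 to 0.0882), that of Ptbp1 without ILC2 library 3 or DN3 library 2 or 3 (0.0589 to 0.161) and that of H3f3b without any one DN3 library (0.0592 to 0.133). Ptbp1 and H3f3b were also not called with upper-quartile scaling or without a filter. Leaving out a library added a call for Cfl1 (without ILC2 library 5), Ddx17 and Srsf5 (2 or 4), Srsf3 (2 or 5) and Snrnp70 (5). These intervals hold for the main scaling: with library totals alone Hspa8 differed by 0.41 and Pabpc1 by 0.36. Srsf3, Ptbp1 and H3f3b, each called in the main fit or with library totals, turned positive there. Genes called in neither fit were not checked for a change of sign.

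**Figure D5:**
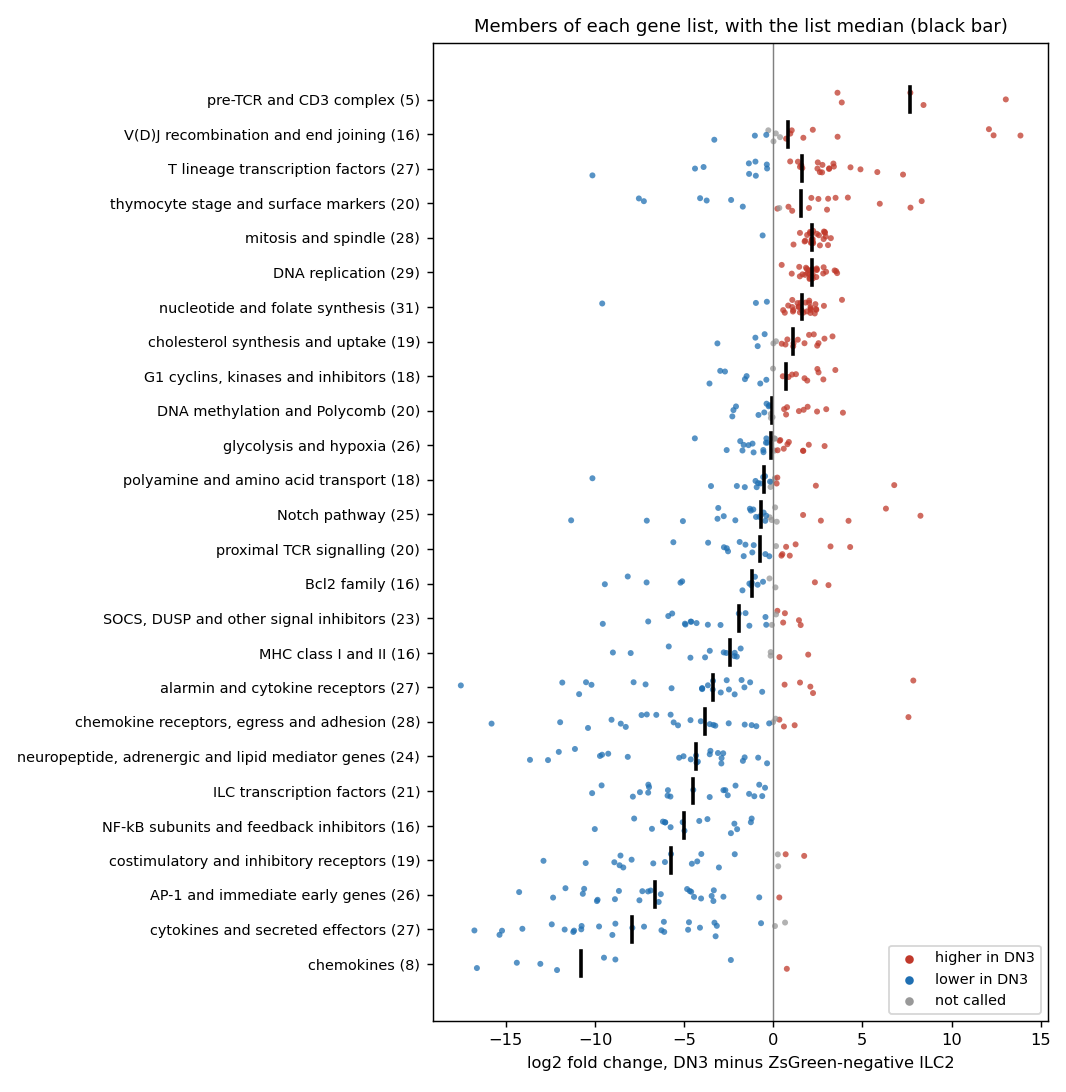
Log2 fold change (x axis, DN3 minus ZsGreen-negative ILC2) of every tested member of 26 gene lists, with the number tested in brackets, red for higher, blue for lower and grey for not called, and the list median as a black bar. Medians run from 7.69 for the pre-TCR and CD3 genes to -10.81 for chemokines (-9.39 with genes at 0 in DN3 set to their bounds), replication and mitosis genes form narrow groups near 2, and the receptor, cytokine and transcription factor lists spread over many units. The 7 chemokines that were lower passed the filter only through ILC2, so the sign of the chemokine median was set by the filter.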

How the data were processed

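Per the labels' protocols, a PicoPure kit served for RNA isolation and an mRNA kit from Watchmaker Genomics for the libraries. The values were whole-number counts per gene in a table the authors deposited, with 57186 entries, and GRCm39 and DESeq2 are named in the submitters' processing notes. How reads were aligned and counted, with which annotation and whether by strand, is not given in the sources used here, so overlapping and near-identical genes are uncertain. Library totals were 4495260 to 14424313 counts, so 1 count stood for 0.0693 to 0.222 CPM.

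Counts were filtered with filterByExpr (minimum count 10), scaled by TMM and tested with edgeR 4.0.16 (quasi-likelihood F test, robust, group as the only term) in R 4.3.3, with Benjamini-Hochberg adjustment over all 14482 genes tested and a threshold of 0.05. On simulated counts for this comparison (13886 genes) the test recovered 79.2% of 96 genes changed by 1 log2 unit. It recovered 97.9% of 95 genes changed by 2 log2 units, with 3.98% false calls among the genes called. In the libraries themselves 78.5% of the genes tested were called. Recovery and false calls with that large a share of changed genes were not tested. CPM, means and intervals were computed on the scaled library sizes. A gene near 0 in a group passed the filter only through the other group, so the direction of its call was set by the filter. For a gene at 0 in a group, the bound is against 3 counts over that group (0.124 CPM in DN3, 0.0868 CPM in ILC2); with 1 to 3 counts the ratio of summed counts is given with an exact 95% interval, and both cover counting error only. Alternatives were other scalings, DESeq2 1.42.0, limma voom 3.58.1, no filter, all 11 libraries, a replicate block, and leaving out each library.

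The gene lists and the comparison were chosen with earlier results of these data known. Named are preset genes of each list, the 15 most abundant called genes per direction outside the lists with at least 4 log2 units, the 15 most abundant genes with an interval within 0.5, and the 4 TCR segments per locus with the highest DN3 level; others are said to be named after their values were seen. A few genes that these rules would name are not reported here, and they stay in the list counts. Promoter windows came from RefSeq (GRCm38.p6), where 9942 of 14477 tested symbols had one. A list's motif share is given only where at least 80% of its genes had a window, and all 27018 windows serve as the reference. No replicate pair agreed within sampling noise, with chi-square per degree of freedom of 1.77 to 3.92 in DN3 and 3.40 to 16.3 in ILC2.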

Additional observations from a re-analysis of the deposited data

Results flagged for a closer look

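In the 5 ZsGreen-negative libraries, 24 of 327 named genes (7.34%) had a library whose gap to the nearest other exceeded 0.71 of the group's range, where chance flags about 1 group in 20. The DN3 group of 3 was too small for this check.

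ILC2 library 4 stood above the other 4 in antigen presentation and interferon genes: H2-K1 at 2930 CPM, H2-D1 at 2651, Nlrc5 at 177, Irf7 at 43.1 and Ifit3 at 0.673 CPM. It was also highest in Bcl2a1d at 129 CPM. Without it, the log2 fold change of Irf7 was -0.36 (adjusted p = 0.0327) against -0.68 (adjusted p = 0.095) with it, and that of Isg15 was 0.61 (adjusted p = 0.00638) against 0.28.

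ILC2 library 5, the one of the April 2025 batch, stood apart in Jund at 355 CPM, Zfp36 at 1568 and Tcf7 at 38.2 CPM, all highest, and in Rgs1 at 605 CPM, Ctla4 at 21.0 and Slc16a1 at 29.7 CPM, all lowest. It was also the sole ILC2 library with counts of Dntt and Cd8b1, each at 0.150 CPM, and it was the deepest.

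ILC2 library 3, which held the most RNA of lung structural cells, was highest in Spib at 9.12 CPM, Ikzf2 at 162, Adgrg1 at 10.6, Pld4 at 4.68, Actn1 at 8.38 and Srsf3 at 771 CPM. ILC2 library 1 was lowest in Penk at 5.92 CPM and Tk1 at 50.7 CPM and alone had counts of Trdv5, at 0.348 CPM. ILC2 library 2 was highest in Trgv2 at 1.82 CPM. These values rest on few counts for Dntt, Cd8b1, Ifit3 and Trdv5, with 2 to 5 counts over the group.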

How the results depend on the processing

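The counts of genes higher and lower in DN3 kept within 1.5 times of 5574 and 5793 under every alternative run. They were 5498 and 5862 with DESeq2's size factors in edgeR, 6013 and 5450 with upper-quartile scaling, 7213 and 4451 with library totals alone, 5357 and 5797 with DESeq2, 5667 and 5797 with limma voom, 6868 and 7615 without a filter, and 5369 and 6240 with all 11 libraries. Leaving out each library in turn gave 5298 to 5490 higher and 5602 to 5824 lower genes. With the replicate number as a block the counts were 5467 and 5713; the numbers do not pair these libraries, since same-numbered libraries of the 2 groups correlated at 0.077, 0.0017 and 0.041, so the block is a check on a number and not on a pairing. Sign changes were counted only for named genes called in the main fit or in the alternative. With library totals alone the sign turned for Cdkn2c (0.3453), Cxcr4 (0.3463), Dnmt3a (0.2248), Gfi1 (0.0129), H3f3b (0.1438), Ptbp1 (0.1626) and Srsf3 (0.1954). No other alternative turned the sign of such a gene. Genes close to 0 and called in neither fit may have turned as well. Counts within lists moved by over 1.5 times chiefly with library totals alone: glycolysis genes lower went from 13 to 8, polyamine and amino acid transport genes higher from 4 to 7, nuclear respiratory genes higher from 13 to 25, chromatin genes lower from 8 to 4 (5 with upper-quartile scaling and without DN3 library 1), ribosomal genes from 4 higher and 58 lower to 13 and 16, and mitochondrial protein-coding genes from 1 higher and 4 lower to 5 and 0. Nuclear respiratory genes higher also fell to 8 with DESeq2, without ILC2 library 1 and without DN3 library 2. Interferon-stimulated genes lower went from 2 to 4 with DESeq2 and without ILC2 library 4, and to 5 with the replicate block. The cause of these shifts was not tested. The depth of 4495260 to 14424313 counts left genes near the floors of 0.124 and 0.0868 CPM without a fold.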

Other observations

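Killer cell genes were mostly below the filter, with 5 of 13 tested. Gzma, encoding the protease granzyme A, was higher in DN3, at 191, 162 and 171 CPM in DN3 and 0.522, 0.182, 0, 0.168 and 0.0750 in ILC2 (9.84 ± 0.19, adjusted p = 5.1e-20 by edgeR, 10.49 without ILC2 library 1). Gzmb had 0 counts in DN3 and 27 in ILC2, and the pore-forming Prf1 had 4 and 13, so neither went with it. Srgn, the proteoglycan that stores granule proteins, ran the other way, at 86.1, 72.6 and 76.6 and 1656, 1710.4, 1827, 1913 and 1427 CPM (-4.44 ± 0.13). Of the 8 Gimap GTPase genes, which act in lymphocyte survival, 6 were lower and 1 higher in DN3. Gimap6 differed by -1.29 ± 0.09 and Gimap4, at 0.333 to 1.08 and 7.66 to 14.5 CPM, by -3.64 ± 0.35.

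Ribosomal protein genes were lower in 58 of 80 tested and higher in 4, with a median of -0.41, but with library totals alone 16 were lower and 13 higher, with a median of -0.05. They summed to 52351 to 55148 CPM in DN3 and 60587 to 83572 in ILC2. Of 31 nuclear genes of respiratory complexes I and V, 13 were higher and 3 lower, with a median of 0.17, and 25 were higher with library totals alone and 8 without ILC2 library 1 or DN3 library 2, while 5 were lower without ILC2 library 5. The 13 protein-coding genes of the mitochondrial genome summed to 15086 to 17723 CPM in DN3 and 18797 to 22728 in ILC2, where 4 were lower and 1 higher with the main scaling and none lower and 5 higher with library totals alone.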
